A study of Homo sapiens with 2 samples.

Results

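Genes of glucose uptake, glycolysis, lactate, glycogen and the pentose phosphate pathway were followed in the cell line LP-1, which was established from multiple myeloma, a human cancer of plasma cells. The genes came from a list of 39, each taken through the probe set that the array annotation gives to that symbol alone. Of these, 36 had such a probe set, out of 18377 genes in all, and 33 passed the filter on dim signals described below. The probe sets for PGAM1 name more than 1 gene, and SLC16A1 and SLC16A3 had no probe set in the annotation used here, so these 3 were not analysed here.

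The study measured RNA on 2 whole-transcript Affymetrix arrays. The HIF2A array held HIF2A cells, LP-1 stably infected with pRUF-IRES-GFP carrying the full-length cDNA of human HIF-2α, and the vector control array held control cells, LP-1 with pRUF-IRES-GFP alone, so both lines carry the GFP vector. Each group is 1 array of 1 stably infected line, so there is no test, no error between replicates and no p-value. The added HIF-2α and any other difference between the 2 lines or cultures cannot be told apart. The submitters state that the HIF-2α protein was checked by Western blot. Values are log2 signals per probe set, and differences are HIF2A minus vector control. A gene passed the filter when its brighter array reached 4.01, the median signal over probe sets, as 11469 genes did.

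Glycolysis splits glucose in an upper, energy-consuming part and a lower part that yields ATP and pyruvate, which lactate dehydrogenase turns into lactate or the mitochondrial pyruvate carrier brings into mitochondria. Glucose 6-phosphate can instead be stored as glycogen or enter the pentose phosphate pathway, which makes NADPH and ribose. Under low oxygen, the hypoxia-inducible factors HIF-1 and HIF-2 bind a short DNA core, and many glycolytic genes are textbook targets of HIF-1 in particular. EPAS1, the gene of HIF-2α, had a signal of 9.05 in HIF2A cells against 3.70 in control cells, and its probe set cannot tell the added from the cell's own transcript. HIF1A, the gene of HIF-1α, had 6.99 in HIF2A cells against 6.92 in control cells, and its protein was not measured on these arrays. All 9 genes of the plasma cell list passed the filter, from 5.14 to 10.47 in HIF2A cells and from 5.80 to 10.13 in control cells. FGFR3 and NSD2 are on that list but are not read here as marks of plasma cell identity. Of the 9, TNFRSF17 had 7.68 in HIF2A cells against 8.71 in control cells, 2.04-fold lower, and FGFR3 had 5.14 in HIF2A cells against 5.80 in control cells, 1.58-fold lower. Of 14 markers of T and NK, myeloid, stromal, endothelial and red cells, 4 passed it, none above 4.81 in HIF2A cells or 4.72 in control cells. In both arrays 6 of the 14, CD3D, CD3E, LYZ, ITGAM, DCN and HBB, stayed under the background level, the 95th percentile over 358 olfactory receptor genes, which was 3.57 in HIF2A cells and 3.58 in control cells. In bulk RNA, fewer cells using a gene and less RNA per cell cannot be told apart.

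The promoters below are shown because they set genes that were higher in HIF2A cells beside a relative, LDHB, and pathway partners that were lower or did not reach 1.5-fold. Capitals mark the HIF core, ACGTG or GCGTG, on either strand, where the opposite strand reads CACGT or CACGC. The windows come from RefSeq on GRCh38.p14 and run 5′ to 3′ on the gene's strand, from 250 bases before the start site to 50 after it. Where the table holds several windows for a gene, as for LDHA and PFKFB3, the one with the most matches is printed. The genes higher in the HIF2A array by at least 1.5-fold are PFKFB3 at chr10:6202682-6202981 (plus strand), PGK1 at chrX:78103998-78104297 (plus strand), ENO2 at chr12:6914330-6914629 (plus strand), LDHA at chr11:18394313-18394612 (plus strand) and GYS1 at chr19:48993260-48993559 (minus strand).
PFKFB3: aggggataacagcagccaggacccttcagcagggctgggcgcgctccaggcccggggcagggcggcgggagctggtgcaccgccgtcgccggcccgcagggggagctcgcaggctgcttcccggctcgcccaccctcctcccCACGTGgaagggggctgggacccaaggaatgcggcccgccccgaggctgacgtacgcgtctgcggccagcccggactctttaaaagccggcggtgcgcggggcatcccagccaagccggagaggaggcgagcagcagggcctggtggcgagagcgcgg
PGK1: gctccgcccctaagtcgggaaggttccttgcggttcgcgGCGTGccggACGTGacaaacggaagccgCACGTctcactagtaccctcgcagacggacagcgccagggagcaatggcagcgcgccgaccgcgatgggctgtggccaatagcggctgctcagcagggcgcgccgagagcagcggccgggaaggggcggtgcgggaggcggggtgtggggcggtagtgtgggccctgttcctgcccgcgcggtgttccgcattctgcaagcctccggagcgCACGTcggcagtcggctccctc
ENO2: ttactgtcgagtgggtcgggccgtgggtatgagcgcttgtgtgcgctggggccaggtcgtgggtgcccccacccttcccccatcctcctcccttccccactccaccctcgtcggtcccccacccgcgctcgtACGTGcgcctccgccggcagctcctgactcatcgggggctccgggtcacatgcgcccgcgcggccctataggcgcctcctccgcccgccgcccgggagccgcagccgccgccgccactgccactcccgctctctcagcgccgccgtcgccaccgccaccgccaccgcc
LDHA: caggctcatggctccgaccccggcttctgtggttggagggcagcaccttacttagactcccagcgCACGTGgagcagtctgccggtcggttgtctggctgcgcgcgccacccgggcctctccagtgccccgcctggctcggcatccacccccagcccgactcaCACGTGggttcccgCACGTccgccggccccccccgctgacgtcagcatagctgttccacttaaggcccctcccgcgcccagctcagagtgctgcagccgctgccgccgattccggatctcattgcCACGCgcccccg
GYS1: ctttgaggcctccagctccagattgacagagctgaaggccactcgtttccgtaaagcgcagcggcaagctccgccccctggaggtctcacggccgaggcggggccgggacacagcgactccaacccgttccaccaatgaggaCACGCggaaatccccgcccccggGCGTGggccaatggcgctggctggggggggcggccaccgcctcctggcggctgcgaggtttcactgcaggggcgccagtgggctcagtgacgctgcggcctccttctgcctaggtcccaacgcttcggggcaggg
The comparison genes are LDHB at chr12:21657793-21658092 (minus strand), MPC1 at chr6:166382891-166383190 (minus strand) and TKT at chr3:53255973-53256272 (minus strand).
LDHB: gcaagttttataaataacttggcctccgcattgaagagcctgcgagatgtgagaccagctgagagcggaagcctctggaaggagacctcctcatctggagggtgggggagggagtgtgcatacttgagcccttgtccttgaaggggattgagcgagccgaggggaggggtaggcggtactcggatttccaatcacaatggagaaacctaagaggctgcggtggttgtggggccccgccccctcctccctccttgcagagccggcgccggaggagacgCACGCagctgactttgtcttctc
MPC1: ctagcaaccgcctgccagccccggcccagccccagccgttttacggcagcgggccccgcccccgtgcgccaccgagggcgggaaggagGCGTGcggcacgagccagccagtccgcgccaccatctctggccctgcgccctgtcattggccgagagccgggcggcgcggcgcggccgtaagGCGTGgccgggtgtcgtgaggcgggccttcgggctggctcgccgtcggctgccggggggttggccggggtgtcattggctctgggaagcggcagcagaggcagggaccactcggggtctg
TKT: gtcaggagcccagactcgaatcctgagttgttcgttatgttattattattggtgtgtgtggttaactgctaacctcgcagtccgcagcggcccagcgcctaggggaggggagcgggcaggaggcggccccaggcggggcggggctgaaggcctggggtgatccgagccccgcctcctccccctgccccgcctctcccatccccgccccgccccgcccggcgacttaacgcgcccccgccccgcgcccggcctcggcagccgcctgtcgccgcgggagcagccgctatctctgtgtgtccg

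Of the 33 genes past the filter, 24 had a difference above 0, which is 72.7%, against 52.6% of all 11469 genes, and 9 one below 0, where 46.1% of all genes were. A 1.5-fold or larger excess in HIF2A cells was seen for 10, or 30.3%, against 5.67% of all genes. These were PFKFB3, SLC2A1, PGK1, LDHA, GYS1, ENO2, PKM, ENO1, PGM1 and PFKFB4. At least 1.5-fold lower was 1, FBP1, where 4.76% of all genes were. PFKFB4 passed the filter through the HIF2A array alone, at 4.41 against 3.81 in control cells. FBP1 passed it through the vector control array alone, at 4.80 against 3.53 in HIF2A cells. HK1 did so too, at 4.10 against 3.98 in HIF2A cells. At least 2-fold higher was PFKFB3 alone and at least 2-fold lower FBP1 alone, where 0.706% and 0.732% of all genes were. The median difference was 0.31 over the 33 genes and 0.03 over all genes, whose robust SD, the scaled median absolute deviation, was 0.34. That SD describes the spread over genes between these 2 arrays and is no error between replicates. The genes were listed with earlier results of these data known, so these shares describe the list and test nothing. Of 38 other genes of these pathways past the filter, 2, or 5.26%, were at least 1.5-fold higher. The median difference of those 38 was -0.08.

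**Figure D1:**
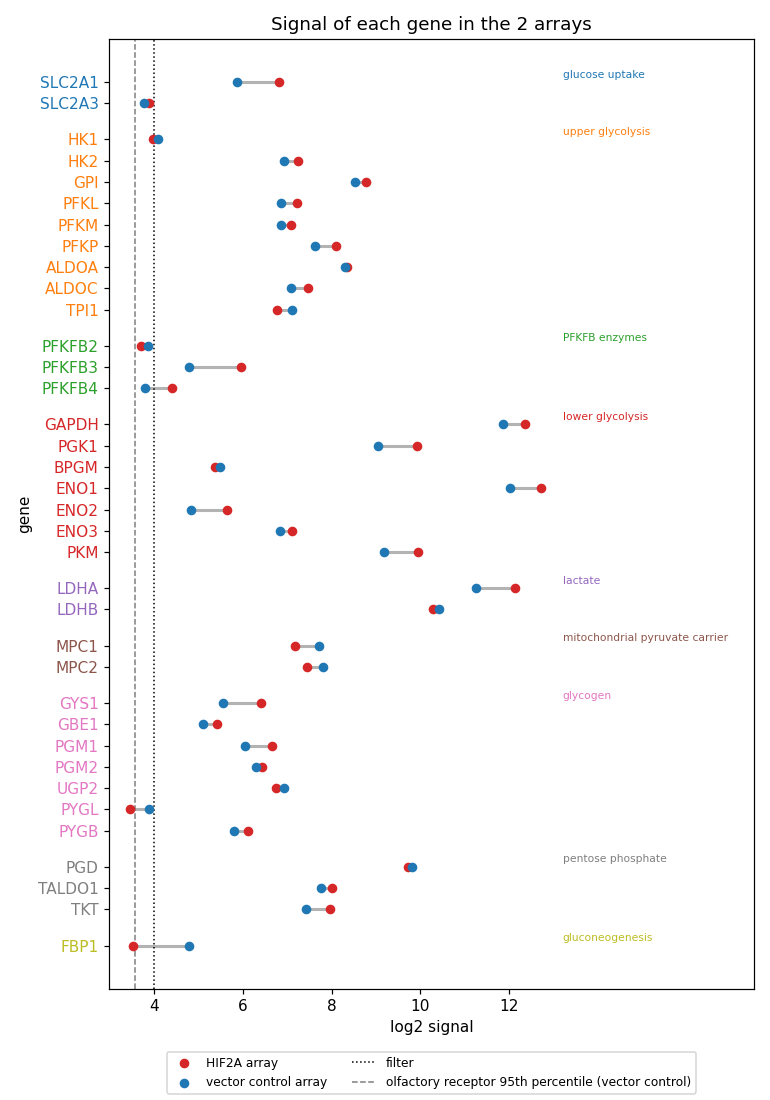
Log2 signal (x axis) of each of the 36 measured genes (y axis, grouped by role) in the HIF2A array (red) and the vector control array (blue), with the filter (dotted) and the olfactory receptor 95th percentile (dashed). Red lies right of blue by the widest gap for PFKFB3, at 5.96 (HIF2A) and 4.79 (vector control), and left of it by the widest gap for FBP1, at 3.53 (HIF2A) and 4.80 (vector control); signals of different probe sets are not comparable with each other.

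Glucose enters cells through facilitative transporters. SLC2A1, which encodes the widely used transporter GLUT1, had a signal of 6.81 in HIF2A cells against 5.87 in control cells. That difference of 0.94, or 1.92-fold, ranked 106 from the top among the 11469 genes. SLC2A3, which encodes the high-affinity transporter GLUT3, was below the filter, at 3.88 in HIF2A cells against 3.78 in control cells. Both its signals lay within 0.31 of the olfactory receptor level.

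No gene of the upper part of glycolysis reached 1.5-fold, but few genes did, 5.67% of all genes upwards and 4.76% downwards. The 9 genes of the upper part all passed the filter, with a median difference of 0.24. They ranged from -0.33 to 0.47, 7 above 0 and 2 below, where 52.6% and 46.1% of all genes were. Hexokinase traps glucose in the cell, and HK2, the isoform known to be raised in many tumours, had 7.24 in HIF2A cells against 6.94 in control cells. HK1, the widely used isoform, had 3.98 in HIF2A cells against 4.10 in control cells. It was only just past the filter, through the vector control array alone. GPI, which makes fructose 6-phosphate, had 8.77 in HIF2A cells against 8.53 in control cells.

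The 3 phosphofructokinase genes, which encode subunits of the committed step, were all higher by similar amounts. PFKP, the platelet-type subunit, had 8.09 in HIF2A cells against 7.62 in control cells, and its difference of 0.47 was the highest of the upper part. PFKL, the liver-type subunit, had 7.23 in HIF2A cells against 6.86 in control cells. PFKM, the muscle-type subunit, had 7.09 in HIF2A cells against 6.87 in control cells. The spread among the 3 differences was at most 0.25, less than the robust SD over genes.

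Aldolase cleaves the hexose into trioses. ALDOC, the brain-type isoform, had 7.47 in HIF2A cells against 7.09 in control cells, whereas ALDOA, the muscle-type isoform that most tissues use, had 8.34 in HIF2A cells against 8.30 in control cells. TPI1, which interconverts the trioses, was the member of the upper part with the most negative difference, -0.33, at 6.77 in HIF2A cells against 7.10 in control cells.

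The PFKFB enzymes set the level of fructose 2,6-bisphosphate, the strongest activator of phosphofructokinase. PFKFB3, whose product strongly favours making that activator, had the highest difference of the 36 genes on the deposited signals, 1.17 or 2.25-fold, at 5.96 in HIF2A cells against 4.79 in control cells. It ranked 41 from the top among all genes. With 32 added on the linear scale PFKFB3 came to 0.66, below 2-fold and below SLC2A1, PGK1, PKM, ENO1 and LDHA, and PFKFB4 to 0.21. PFKFB4 had 4.41 in HIF2A cells against 3.81 in control cells, a difference of 0.60 or 1.52-fold, just past the 1.5-fold line at 0.585. Its 20 nearest genes past the filter on chromosome 3 had a median difference of 0.20, and the part of this in its value was not tested. PFKFB2, known as the heart isoform, was below the filter at 3.71 in HIF2A cells against 3.86 in control cells. The difference of PFKFB3 thus exceeded that of PFKFB2 by 1.32 and that of PFKFB4 by 0.57.

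The lower part of glycolysis held 4 genes at least 1.5-fold higher among the 7 measured, where 5.67% of all genes were. The median difference of the 7 was 0.70, with 6 above 0 and 1 below, where 52.6% and 46.1% of all genes were. PGK1 encodes phosphoglycerate kinase, the first ATP-yielding step, and had 9.92 in HIF2A cells against 9.05 in control cells, which is 1.83-fold. PKM, which encodes the pyruvate kinase of most tissues and tumours, had 9.95 in HIF2A cells against 9.17 in control cells, or 1.72-fold. Its M1 and M2 splice forms cannot be told apart in 1 value per gene.

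Enolases make phosphoenolpyruvate, and 2 of their 3 genes were at least 1.5-fold higher, where 5.67% of all genes were. ENO1, the form found in most tissues, had 12.71 in HIF2A cells against 12.01 in control cells, a difference of 0.70. ENO2, the form best known from neurons, had 5.65 in HIF2A cells against 4.84 in control cells, a difference of 0.81. ENO3, the muscle form, had 7.10 in HIF2A cells against 6.84 in control cells, a difference of 0.26. With 32 added on the linear scale ENO2 came to 0.44, below 1.5-fold.

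GAPDH, the oxidative step and a common loading control, had 12.36 in HIF2A cells against 11.86 in control cells, a difference of 0.50 or 1.41-fold. After quantile normalization the difference of GAPDH was 0.23 and that of ENO1 0.50, so ENO1 was then below 1.5-fold. LDHA, with a difference of 0.86 as deposited, came to 0.675 in that setting. BPGM, which diverts a glycolytic intermediate to 2,3-bisphosphoglycerate, had 5.37 in HIF2A cells against 5.49 in control cells. GAPDH, ENO1, PGK1, PKM, LDHA, LDHB and TPI1 have processed pseudogenes in the genome, whose share in these signals was not tested.

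**Figure D2:**
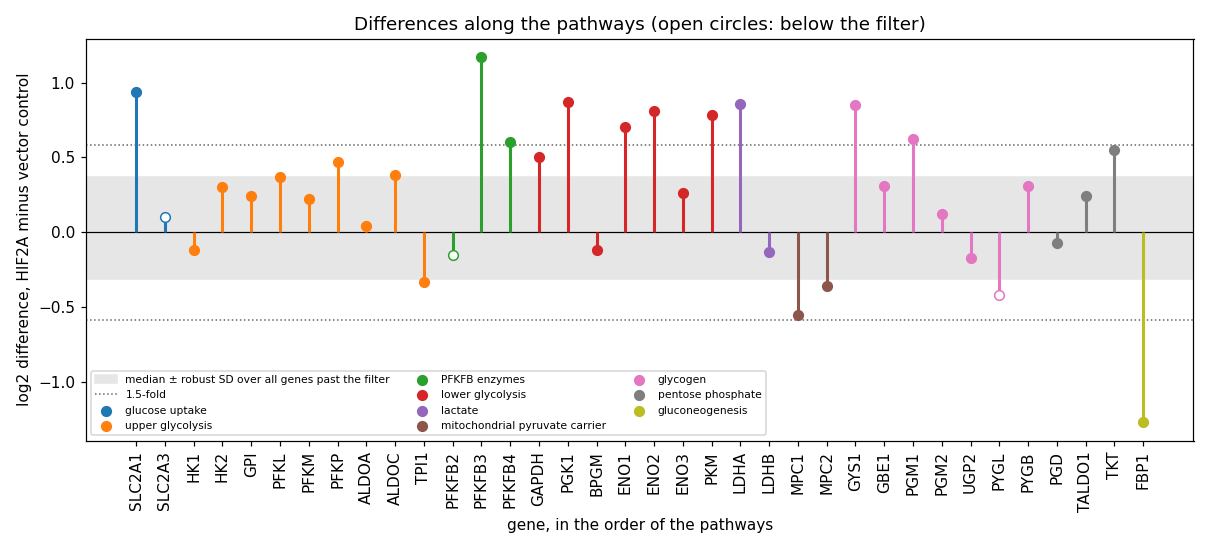
Log2 difference, HIF2A minus vector control (y axis), of each measured gene in pathway order (x axis), coloured by role, with the median ± robust SD over all genes past the filter (grey band) and the 1.5-fold lines (dotted); open circles lie below the filter. The 9 genes of the upper part stay between -0.33 and 0.47. The 7 of the lower part lie between -0.12 and 0.87, so the parts overlap. PGK1, ENO1, ENO2, PKM and, at 0.50, GAPDH lie above all 9 of the upper part.

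The lactate dehydrogenase subunits differed from each other by 0.99 in their differences, the widest gap among the related genes with all members past the filter. LDHA, whose subunit favours making lactate from pyruvate, had 12.12 in HIF2A cells against 11.26 in control cells, a difference of 0.86 or 1.82-fold. LDHB, whose subunit favours the reverse reaction, had 10.28 in HIF2A cells against 10.41 in control cells, a difference of -0.13. Both mitochondrial pyruvate carrier genes, whose products form 1 complex, were lower in the HIF2A array. MPC1 had 7.17 in HIF2A cells against 7.72 in control cells, a difference of -0.55 or 1.46-fold lower. MPC2 had 7.45 in HIF2A cells against 7.81 in control cells, a difference of -0.36. Neither reached 1.5-fold.

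FBP1 encodes fructose-1,6-bisphosphatase, the gluconeogenic enzyme that opposes phosphofructokinase. It had 3.53 in HIF2A cells, within the olfactory receptor range, against 4.80 in control cells. The measured difference was -1.27, and against the olfactory receptor level FBP1 was at least 2.34-fold lower. With 32 added on the linear scale it came to -0.46, below 1.5-fold. Its 20 nearest genes past the filter on chromosome 9 had a median difference of 0.125, opposite in sign to its own.

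**Figure D3:**
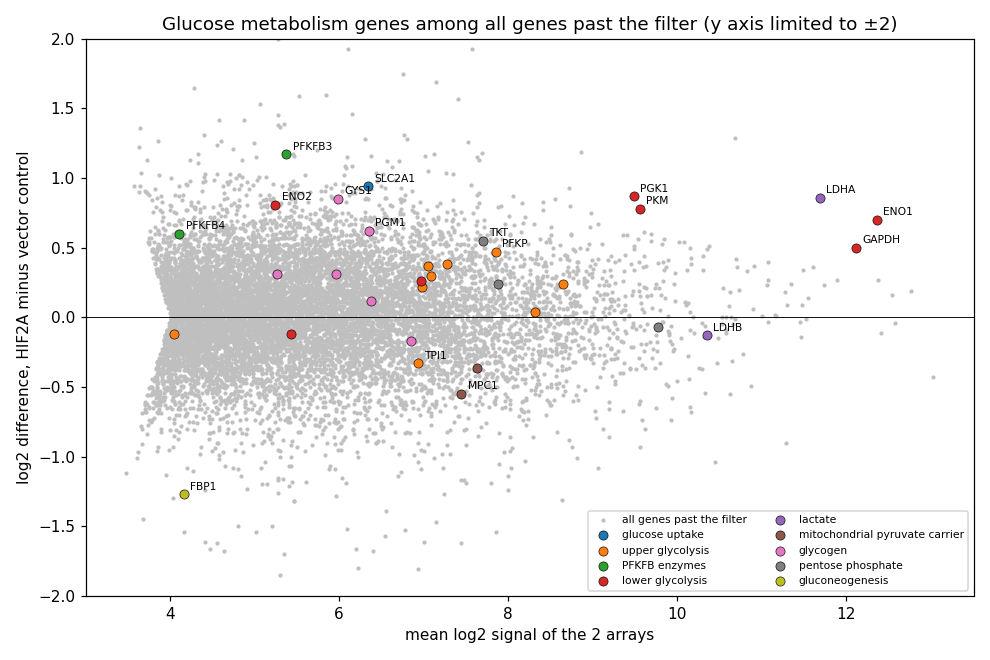
Log2 difference, HIF2A minus vector control (y axis), against the mean log2 signal of the 2 arrays (x axis) for all 11469 genes past the filter (grey) and the 33 glucose metabolism genes past it (coloured by role). LDHA, ENO1 and GAPDH lie at the bright end with differences of 0.86, 0.70 and 0.50, and FBP1 at the dim end with -1.27.

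Of 7 glycogen genes, 6 passed the filter, with a median difference of 0.31. Of these 5 lay above 0 and 2 were at least 1.5-fold higher, where 52.6% and 5.67% of all genes were. Further glycogen genes outside the list of 39, 10 past the filter, had a median of 0.055, with 5 above 0 and 1 at least 1.5-fold higher. GYS1, the glycogen synthase of muscle and most other tissues, had 6.41 in HIF2A cells against 5.56 in control cells, a difference of 0.85 or 1.80-fold. PGM1, which interconverts glucose 6-phosphate and glucose 1-phosphate, had 6.66 in HIF2A cells against 6.04 in control cells, a difference of 0.62. Its neighbours on chromosome 1 were also higher, with a median of 0.265 over the 20 nearest genes past the filter, and after subtracting this PGM1 was at 0.355, below 1.5-fold. Quantile normalization and loess centring also left PGM1 just under the line at 0.585, both at 0.58. With 32 added on the linear scale PGM1 came to 0.44 and GYS1 to 0.56, both below 1.5-fold.

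The remaining glycogen genes differed less. GBE1, the branching enzyme, had 5.42 in HIF2A cells against 5.11 in control cells. UGP2, which makes the UDP-glucose that glycogen synthase uses, had 6.76 in HIF2A cells against 6.93 in control cells, a difference of -0.17. PGM2, a relative of PGM1 that acts mainly on pentose phosphates, had 6.43 in HIF2A cells against 6.31 in control cells. Of the phosphorylases, which release glucose 1-phosphate, PYGB, the brain type, had 6.12 in HIF2A cells against 5.81 in control cells. PYGL, the liver type, was below the filter, at 3.47 in HIF2A cells against 3.89 in control cells. The neighbours of PYGB on chromosome 20 had a median difference of -0.27.

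None of the 3 pentose phosphate genes in the list of 39 reached 1.5-fold, where 5.67% of all genes did upwards and 4.76% downwards. TKT, the transketolase of the non-oxidative branch, had 7.97 in HIF2A cells against 7.42 in control cells, a difference of 0.55, just short of the 1.5-fold line. TALDO1, the transaldolase of the same branch, had 8.0 in HIF2A cells against 7.76 in control cells. Its neighbours on chromosome 11 had a median difference of 0.29, above its own 0.24, and it was the only gene of the 36 whose sign changed when that median was subtracted, to -0.05. PGD, the second dehydrogenase of the oxidative branch, had 9.73 in HIF2A cells against 9.80 in control cells.

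**Figure D4:**
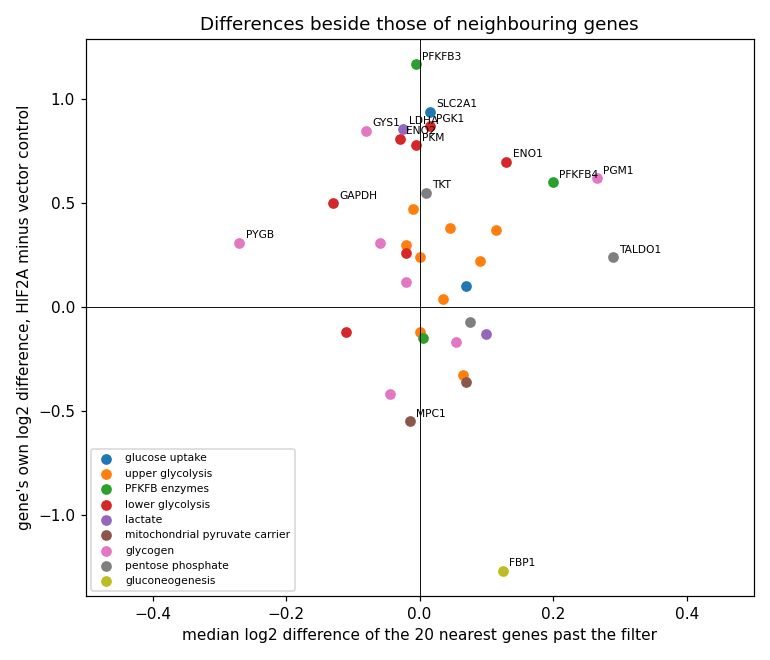
Each gene's own log2 difference, HIF2A minus vector control (y axis), against the median log2 difference of its 20 nearest genes past the filter on the chromosome (x axis), coloured by role. The neighbour medians run from -0.27 for PYGB to 0.29 for TALDO1, and PFKFB3, SLC2A1, PGK1, LDHA, ENO2 and PKM lie near 0 on the x axis.

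The neighbour median was above 0.2 for 2 genes, PGM1 and TALDO1, and below -0.2 for 1, PYGB. After subtracting the neighbour median, 8 genes were at least 1.5-fold higher, with PFKFB4, PGM1 and ENO1 below the line and GAPDH above it. Of all genes past the filter, 4.87% were then at least 1.5-fold higher. TPI1 and ENO2 are separated by 3 genes past the filter on chromosome 12, with differences of -0.33 for TPI1 and 0.81 for ENO2. Their neighbour medians were 0.065 for TPI1 and -0.03 for ENO2.

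The HIF core was common in these promoters, in genes that were higher in HIF2A cells and in genes that were not. Promoter windows were found for 34 of the 36 genes, all but SLC2A3 and PFKFB2. Counting any window of a gene, 18 of 34 genes held ACGTG, or 52.9%, against 32.5% of the 9140 genes past the filter that have a window. For GCGTG it was 25 of 34 genes, or 73.5%, against 58.1%, and for either 31 of 34, or 91.2%, against 70.1%. Over all 35116 windows, 21.4% held ACGTG, 36.5% held GCGTG and 48.4% either. Genes with several windows have more chances of a match. Among genes with 1 window, 9 of 22 genes of glucose metabolism held ACGTG, or 40.9%, against 27.9% of genes past the filter.

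Of the 10 genes at least 1.5-fold higher, 5 held ACGTG, as did 13 of the other 24. GCGTG stood in 9 of the 10 and in 16 of the other 24, and either core in all 10 and in 21 of the other 24. In the windows printed above, LDHA had 6 matches against 1 in LDHB. Because CACGTG holds ACGTG on both strands, 4 of the 6 come from a pair of such palindromes, and both matches in PFKFB3 come from 1. PGK1 had 4 matches and ENO2 had 1. MPC1, lower in the HIF2A array, had 2, as did GYS1, and TKT had 0. The windows of TALDO1, TKT and PYGL held neither core. Of the higher genes not printed, SLC2A1, PKM and PFKFB4 had at most 1 match in a window, ENO1 2 and PGM1 3. Among genes short of 1.5-fold, the most matches in a window were 6 in HK2, 5 in ALDOC and 4 in PGM2. Their differences were 0.30, 0.38 and 0.12. Across all genes past the filter, 6.37% of the 2969 with ACGTG and 5.64% of the 6171 without it were at least 1.5-fold higher. A match is a description of letters and not a site of binding, which these arrays do not measure.

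**Figure D5:**
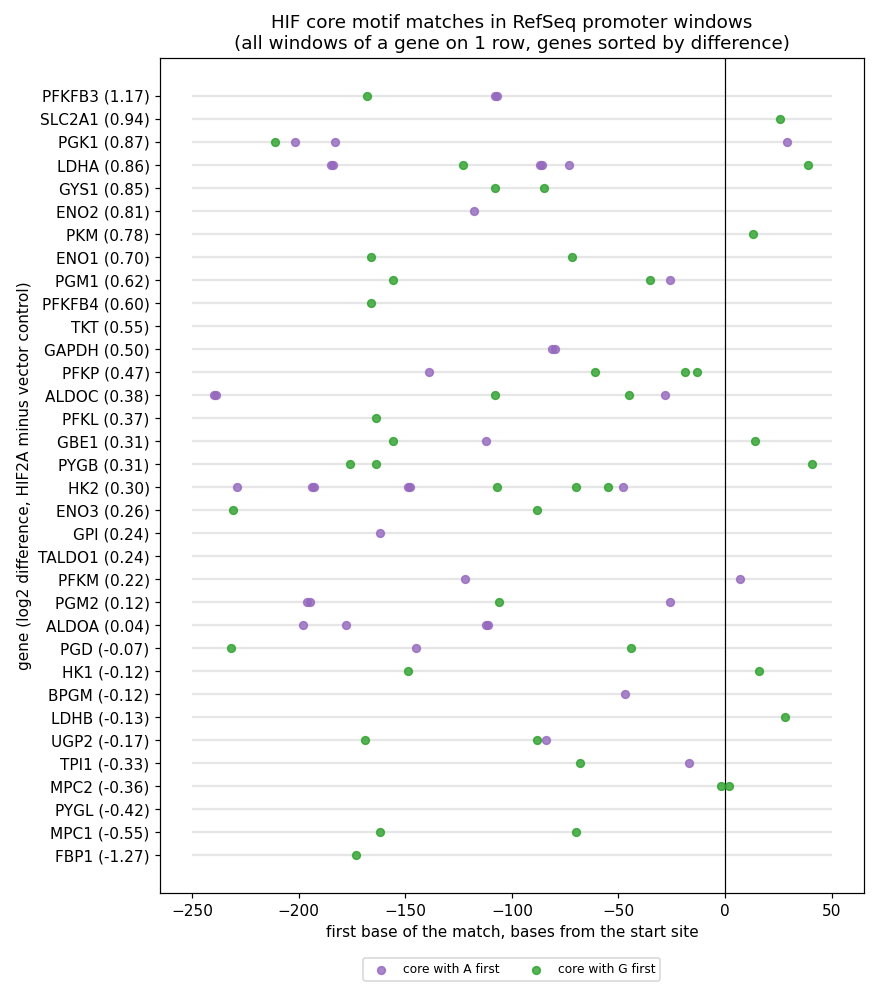
Matches to the 2 HIF core motifs (purple with A first, green with G first, both strands) by distance of their first base from the start site (x axis, bases) for the 34 genes with a promoter window, sorted by log2 difference, HIF2A minus vector control (y axis, value in brackets). Matches run down the whole list, from PFKFB3 at 1.17 to FBP1 at -1.27, and rows without points, such as TKT at 0.55, hold none.

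The other genes of these pathways were taken from a further list of 71, of which 64 were measured and 38 passed the filter. Their median difference was -0.08, 16 lay above 0 and 22 below, and 2 were past 1.5-fold upwards and 2 downwards, where 5.67% and 4.76% of all genes were. GYG1, the glycogenin that primes glycogen, had 8.37 in HIF2A cells against 7.64 in control cells, a difference of 0.73 next to that of 0.85 for GYS1. PC, the pyruvate carboxylase gene, had 4.28 in HIF2A cells against 3.36 in control cells and passed the filter through the HIF2A array alone. Its vector control signal lay in the olfactory receptor range, so PC is given as at least 1.62-fold higher. GAA, the lysosomal glucosidase that degrades glycogen, and SLC37A4, the glucose 6-phosphate transporter of the endoplasmic reticulum, were higher by 0.53 and 0.50. PC and SLC37A4 lie on chromosome 11 among neighbours with medians of 0.23 and 0.255. The neighbour medians were 0.17 for GYG1 and 0.18 for GAA. The part of these medians in the values of the 4 genes was not tested.

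Lower was DERA, which encodes the deoxyribose-phosphate aldolase that links deoxynucleoside breakdown to glycolysis, at 4.80 in HIF2A cells against 6.12 in control cells. Its difference of -1.32, or 2.50-fold lower, ranked 27 from the bottom among all genes. SLC16A7, a monocarboxylate transporter gene, had 5.48 in HIF2A cells against 6.18 in control cells, a difference of -0.70. PGAM2, the muscle-type phosphoglycerate mutase, and SHPK, the sedoheptulokinase, had -0.57 and -0.34, and the neighbours of PGAM2 on chromosome 7 had a median of -0.36. Other glucose transporters past the filter, 7 in number, ranged from -0.27 to 0.42.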

How the data were processed

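RNA of LP-1 cells was measured on 2 arrays, 1 per group. The authors deposited 1 log2 signal for each probe set and array, which the submitters' processing notes credit to Affymetrix Expression Console. Its algorithm and any centring are details not given in the sources used here. Base 2 follows from the highest value, 13.97, since natural logs of 16-bit readings end at 11.1. Of 28869 probe sets, 19310 carry 1 symbol, and 19279 of these were matched by Entrez number to the RefSeq table of GRCh38.p14. The brightest probe set stood for a gene; the 36 measured genes have 1 each. Neighbour medians used the 10 nearest genes past the filter on each side. A bound was set against the 95th percentile of olfactory receptor genes wherever the dimmer array lay below it.

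The number of arrays limits the precision, and no test was run. All 39 genes may be named, as may, of the other pathway genes, up to 4 with the highest and 4 with the lowest difference. The members and lists were chosen with earlier results of these data known. Alternatives were scaling by quantiles, by medians or by loess (span 0.3, 3 passes), an offset of 32 on linear values, no filter or one at the 75th percentile, the mean or dimmest probe set, and subtracting the median of 20 neighbours. The 2-fold calls and the neighbour medians were tested on simulated data, and the 1.5-fold calls were not. The differences planted for the calls were all larger than 2-fold. Python 3.11.15, numpy 2.4.6, pandas 2.3.3, statsmodels 0.14.6 and matplotlib 3.10.9 were used.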

Additional observations from a re-analysis of the deposited data

How the results depend on the processing

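No paired analysis was possible because each group has 1 array. Leaving out a replicate was not possible for the same reason. The median difference of the 33 genes, 0.31, ran from 0.21 with 32 added on the linear scale to 0.33 after median centring. Genes at least 1.5-fold higher, 10 in number, came to 8 after quantile normalization and after subtracting neighbours. They came to 9 after loess centring, 9 of 29 with the 75th percentile filter, and 6 with 32 added on the linear scale. Over all genes the share, 5.67% as deposited, was 5.14% after quantile normalization, 4.87% after subtracting neighbours and 5.09% after loess centring. It was 6.95% with the 75th percentile filter and 1.21% with 32 added. With 32 added, which shrinks dim genes by construction, 0 genes were at least 2-fold higher, 0 at least 1.5-fold lower and 0 at least 2-fold lower. The median of the 2 PFKFB enzymes past the filter, 0.885 as deposited, then came to 0.44 and PFKFB3 to 0.66. In that setting PFKFB4 at 0.21, ENO2 at 0.44, GYS1 at 0.56, PGM1 at 0.44 and FBP1 at -0.46 were no longer past 1.5-fold. Without a filter, on the deposited signals, PFKFB2 entered and the median of the PFKFB enzymes was 0.60. With the 75th percentile filter, 0 genes were at least 1.5-fold lower and 0 at least 2-fold lower, because FBP1 does not enter. The lower part of glycolysis had a median of 0.50 after quantile normalization and 0.60 after loess centring. Of 252 values of single genes in 7 settings, 1 had another sign, that of TALDO1 after subtracting neighbours. The settings of mean and dimmest probe set repeat each gene's value, since each has 1 probe set, so that count does not measure stability.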
